A study of Rattus norvegicus with 12 samples.

Results

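The potassium channel genes were taken as all rat genes on the array with a symbol beginning with Kcn. Of 15159 named genes 90 met this rule, measured by 117 probes. They fall by symbol into 38 genes of voltage-gated channels (Kv), 15 of inward rectifiers (Kir), 13 of tandem-pore channels (K2P), 7 of calcium-activated and related sodium-activated channels, and 17 of auxiliary subunits. The annotation lists 97 such genes, and 7 had no probe named here.

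Potassium channels let potassium leave the cell and so set the resting potential, end the action potential and fix how often a neuron fires. Kv channels open on depolarization, Kir channels near or below rest, K2P channels carry the background leak, and the calcium-activated channels follow intracellular calcium. Auxiliary subunits do not form a pore but bind the channel and alter its traffic or gating. In peripheral nerve the Shaker channels of axons lie beside the node of Ranvier under the myelin, and loss of potassium current in sensory neurons is a known correlate of pain after nerve damage.

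The study injected MBP84-104, a peptide of myelin basic protein (50 μg in 5 μL PBS), into the left sciatic nerve of 8 week old female rats to ask what the peptide evokes with and without T cells. Wild-type rats (Sprague-Dawley in the sample labels, rnu+/- in the methods) were taken at 12 days and athymic nude rats (Hsd:RH-Foxn1rnu, rnu-/-), which lack a working thymus, at 7 days according to the labels. The text of the study places both rat types at 1 week, so the day of the wild-type arrays is not settled. In each rat type 1 array held the injected nerve, 1 the right nerve given PBS, 1 each the left and right dorsal root ganglia (DRG), and 1 each the left dorsal part of the lumbar enlargement and of the cord above it, which served as its control. Each of the 12 arrays was hybridized with RNA pooled from 3 rats, and no uninjected rat was measured. The control nerve and DRG are the other side of injected rats, so sides and tissues are not separate draws of rats, and rat type, strain and day cannot be told apart.

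Levels below are log2 signals relative to the median of the same array, so that 0 is the median probe, and a probe counts as detected where the scanner software marked it well above background. A level under the weakest detected probe of its array was set to that value, the floor. Where a tissue was dim on some but not all of its arrays, the fold uses the floor on those and can understate the difference. The floor differs between arrays, so a gene dim in both tissues can still show a difference, which then reflects the floors. Where levels of a tissue are listed, the order is wild-type control, wild-type injected side, nude control and nude injected side. The share of probes detected ran from 52.8% to 71.5% and was lowest on the injected nude nerve, where the floor lay 0.62 below the median, against 0.89 to 2.61 on the other 11 arrays. A dim gene is therefore easily lost on that array, and the level of 1 gene is never compared with that of another.

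The tissue labels were checked with marker genes. The 13 sensory neuron markers on the array summed to 5.72 to 13.8 times the array median on the nerve arrays, 1107 to 1319 on the DRG arrays and 196 to 252 on the cord arrays. Of these, 12 were detected on all 4 DRG arrays (Mrgprd on none), while Scn10a, Scn11a and Mrgprd were detected on no nerve array and Trpv1, Scn10a, Scn11a, Isl1, Avil and Mrgprd on no cord array. The 10 spinal cord neuron markers summed to 6.36 to 9.70 in nerve, 47.7 to 59.8 in DRG and 309 to 424 in cord. The 8 oligodendrocyte markers summed to 1482 to 2376 in cord against 82.3 to 116 in nerve and 93.6 to 114 in DRG. The 10 Schwann cell markers, all detected on all nerve arrays, summed to 1907 to 3776 in nerve and 1608 to 2256 in DRG. In cord they still summed to 828 to 965, with 7 of 10 detected on all 4 arrays. In pooled tissue, fewer cells of a type and less RNA per cell cannot be told apart.

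Fewer potassium channel genes were detected throughout the nerve arrays than throughout the DRG or cord arrays. Of the 90 genes, 27 (30.0%) were detected on all 4 nerve arrays, 51 (56.7%) on all 4 DRG arrays and 64 (71.1%) on all 4 cord arrays, and 37, 19 and 14 on none of them. Among all named genes these shares were 56.6%, 58.6% and 67.1%. The nerve set comprised 11 Kv, 3 Kir, 8 K2P, 2 calcium-activated and 3 auxiliary genes, and the DRG set 27, 4, 8, 3 and 9. In cord, 30 Kv, 10 Kir, 9 K2P, 5 calcium-activated and 10 auxiliary genes were detected on all 4 arrays. On all 12 arrays 26 genes were detected. Kcna10, Kcnf1, Kcnj1, Kcnj15, Kcnj2, Kcnj4, Kcnk15, Kcnk9, Kcnmb1 and Kcnmb3 were detected on none, which left 80 for the tests.

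Tissues were compared with limma on the mean of the 2 sides per tissue and rat type, with 2 values per tissue, and a gene was called at an adjusted p under 0.05 with a difference of at least 2-fold. In DRG 29 of the 80 genes were higher than in nerve (36.2%), where 6.83% of all 12071 genes tested were, and 4 were lower, where 10.6% of all genes were. In cord 36 were higher than in nerve (45.0%, against 16.1% of all genes) and 9 lower (11.2%, against 21.4%). Between cord and DRG the genes split evenly, with 16 higher in cord (20.0%, against 15.2% of all genes) and 15 higher in DRG (18.8%, against 12.8%). The median log2 difference of DRG over nerve was 0.29 for these genes and -0.20 for all genes, that of cord over nerve 0.68 and -0.22, and that of cord over DRG 0.02 and 0.02. The 3 contrasts share arrays and are not independent. In all, 53 genes were called in at least 1 contrast and 27 in none.

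**Figure D1:**
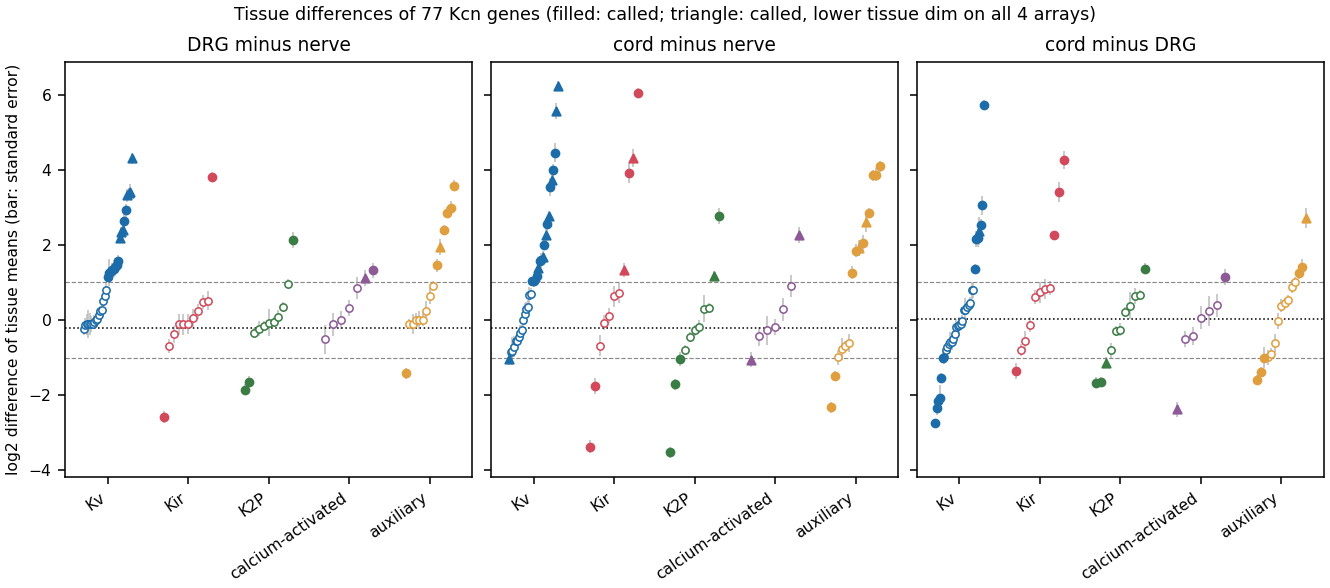
Log2 difference between tissue means with its standard error (vertical axis) for 77 of the 80 potassium channel genes tested, by class, in the 3 tissue contrasts. Filled symbols are called genes, triangles those of them whose lower tissue was dim on all 4 arrays, dashed lines 2-fold and the dotted line the median of all genes. No Kv gene was called lower in DRG than nerve, whereas called K2P genes lie on both sides.

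Among Kv genes, 19 of 36 tested were higher in DRG than nerve (52.8%, against 6.83% of all genes) and none lower (against 10.6%). In cord 20 were higher than in nerve (55.6%, against 16.1%) and 1 lower (2.78%, against 21.4%). The cord held 8 Kv genes at higher levels than DRG (22.2%, against 15.2%). DRG held 7 at higher levels than cord (19.4%, against 12.8%).

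The largest tissue difference among these genes was that of Kcnd2, the pore subunit of the somatodendritic A-type current. Its level was 4.52, 4.79, 4.69 and 5.01 on the cord arrays. In DRG it was detected only in wild-type rats, at -1.32 and -0.64, and in nerve on no array. Every cord array stood far above every other array. The level in cord was 52.7-fold that in DRG (log2 difference 5.72 ± 0.13 SE, adjusted p = 6.76e-05) and at least 75.2-fold that in nerve (adjusted p = 1.33e-05). The other Kcnd2 probe, detected on the 4 cord arrays and no other, had the same order. The related Kcnd3 showed no call between cord and DRG (-0.14 ± 0.21, adjusted p = 0.585) and was 2.49-fold higher in DRG than nerve. Kcnd1 ran the other way from Kcnd2. It lay at 3.17, 2.94, 2.83 and 2.83 in DRG, at 0.72, 0.89, 0.39 and 0.45 in cord, and at 0.14, 0.26, 0.54 and 0.31 in nerve. Every DRG array lay above every other array, while cord and nerve overlapped, and DRG exceeded nerve 6.19-fold (adjusted p = 0.000431) and cord 5.04-fold (adjusted p = 0.000429).

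The genes higher in DRG included silent Kv subunits, which form no channel alone and modify those of other Kv genes. Kcns1, a subunit linked to pain sensitivity, was detected on all 4 DRG arrays at 0.78, 0.69, 0.69 and 0.71. It was detected on no nerve array and on 1 cord array, at -1.92. DRG exceeded nerve at least 4.58-fold (adjusted p = 0.000254) and cord 6.76-fold (adjusted p = 0.000118). Kcnv1 lay between 1.87 and 2.03 on the DRG arrays, between -0.67 and 0.33 on the cord arrays, and was dim in nerve. Its difference was 9.98-fold or more over nerve and 4.49-fold over cord. Kcng3 was 4.26-fold higher in DRG than cord (adjusted p = 0.00562). Its DRG levels were -0.79, -0.72, 0.50 and 0.71, lower in both wild-type than in both nude arrays, and its nerve and DRG arrays overlapped at the floor. Kcns3 was 7.57-fold higher in DRG than nerve and 5.88-fold higher in cord than nerve. Kcng2, in contrast, was higher in cord than in DRG (2.56-fold, adjusted p = 0.000914), and Kcng1, detected on all 12 arrays, was called in no contrast.

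Kcnb2, a delayed rectifier that silent subunits join, was dim on every nerve array and stood at 2.60, 2.75, 3.19 and 2.77 in DRG and 0.72, 1.37, 1.38 and 1.65 in cord. DRG exceeded cord 2.92-fold (adjusted p = 0.000718) and nerve at least 19.8-fold (adjusted p = 6.94e-05), the largest DRG over nerve difference among the Kv genes.

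The axonal Shaker genes Kcna1 and Kcna2 were detected on every nerve array. Kcna1 had nerve levels of 4.54, 3.41, 5.20 and 3.56, DRG levels of 5.06, 5.20, 4.96 and 4.69, and cord levels of 5.78, 5.91, 5.69 and 5.68. Cord exceeded nerve 3.01-fold (adjusted p = 0.00137), while the DRG over nerve difference of 1.74-fold (adjusted p = 0.0278) fell short of 2-fold. Kcna2, its partner in the same channels, was 2.48-fold higher in DRG and 2.96-fold higher in cord than in nerve, with no call between cord and DRG (1.19-fold, adjusted p = 0.152). Kcna4, a fast inactivating member found in small sensory neurons, was dim throughout the nerve and at least 5.05-fold higher in DRG. Kcna6 was higher in cord, at 3.85, 3.55, 3.90 and 3.33, than in DRG, at 1.41, 1.19, 1.18 and 0.72 (5.80-fold, adjusted p = 0.000204). A second Kcna6 probe, dimmer on average over the 12 arrays but brighter in nerve, was detected on all 12 arrays. It averaged 0.76 in nerve, 0.52 in DRG and 0.42 in cord and did not share this order.

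Among M current and ether-a-go-go genes, the calls between DRG and cord included Kcnq3, Kcnh2 and Kcnh7. Kcnq3, a subunit of the M channel that restrains repetitive firing, lay at 4.41, 4.35, 4.52 and 4.49 in cord and at 2.01, 2.42, 2.61 and 2.13 in DRG, and was detected on no nerve array. Cord exceeded DRG 4.44-fold (adjusted p = 0.00091) and nerve at least 47.3-fold (adjusted p = 2.19e-05). Kcnh2, which encodes the channel of the cardiac rapid delayed rectifier, was 8.28-fold higher in cord than DRG (adjusted p = 0.000435). Kcnh1 was dim in nerve and at least 13.3-fold higher in cord (adjusted p = 1.71e-05), and it was called over nerve in DRG as well (adjusted p = 8.43e-05). Kcnh7 was higher in DRG, by 2.01-fold over cord and at least 5.22-fold over nerve. Kcnh1, Kcnh3, Kcnh4, Kcnh5, Kcnh6 and Kcnh8 were not called between cord and DRG.

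Kcnc genes encode fast channels that serve rapidly firing neurons. Kcnc1 was detected on the 4 cord arrays alone, at 0.48, 1.52, 0.72 and 0.38, and lay at least 5.16-fold over DRG (adjusted p = 0.00388). Kcnc2 was 4.51-fold higher in cord than DRG and 11.6-fold higher than in nerve. Kcnc4 was called in no contrast. Kcna5 was called higher in nerve than cord with 1 nerve array and no cord array above background. In wild-type rats, where it was dim in both tissues, the floors alone gave -0.90 for cord minus nerve.

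Among auxiliary subunits, 6 of 15 tested were higher (40.0%) and 1 lower (6.67%) in DRG than nerve, against 6.83% and 10.6% of all genes. In cord 9 were higher than in nerve (60.0%, against 16.1%) and 2 lower (13.3%, against 21.4%). Kcnip4, a calcium-binding partner of Kcnd channels, lay at 2.84, 2.58, 3.05 and 2.71 in DRG and between 3.01 and 3.66 on the cord arrays, but was detected on only 2 nerve arrays. DRG exceeded nerve 11.9-fold (adjusted p = 9.53e-05) and cord exceeded nerve 17.1-fold (adjusted p = 1.81e-05). Kcnip1 and Kcnip3 also stood higher in both than in nerve, by 5.27-fold and at least 3.86-fold in DRG. Kcnip2, alone of this family, was higher in DRG than cord (3.03-fold, adjusted p = 0.000424). Kcnab1, a cytoplasmic beta subunit of Shaker channels, lay at 3.56, 3.44, 3.31 and 3.23 in DRG and 4.26, 4.36, 4.15 and 4.33 in cord. In nerve it lay at 0.95, -0.47, 1.15 and -0.01. The 3 tissues did not overlap, and DRG exceeded nerve 7.89-fold (adjusted p = 0.000249). Kcnab3 was detected on the 4 cord arrays and no other, at least 6.57-fold over DRG.

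The subunits of the large-conductance calcium-activated channel moved in opposite directions. Kcnmb4 was highest in nerve, at 5.38, 4.68, 5.57 and 4.35, against 3.80, 3.77, 3.25 and 3.50 in DRG and 2.84, 2.85, 2.59 and 2.41 in cord. Nerve exceeded DRG 2.67-fold (adjusted p = 0.00153) and cord 5.00-fold (adjusted p = 9.59e-05). Kcnmb2 had the reverse order and was 14.5-fold higher in cord than nerve (adjusted p = 1.93e-05), and its other probe had the same order with smaller differences. The brightest probe of the pore gene Kcnma1 was detected on all 12 arrays and was called in no contrast, with a DRG minus nerve difference of -0.52 ± 0.39 SE. A dimmer Kcnma1 probe, in contrast, was detected on every DRG and cord array and on no nerve array. Kcne3, a small accessory subunit, was 2.84-fold higher in nerve than cord. Kcnrg and Kcne3 were called as higher in DRG than cord with only 2 of 4 DRG arrays above background.

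Among inward rectifiers, 1 of 11 tested was higher and 1 lower in DRG than nerve (9.09% each, against 6.83% and 10.6% of all genes). In cord 4 were higher than in nerve (36.4%, against 16.1%) and 2 lower (18.2%, against 21.4%). Kcnj8, the pore of the vascular ATP-sensitive channel, lay at 4.17, 4.51, 4.37 and 4.07 in nerve, 1.53, 1.69, 1.84 and 1.75 in DRG, and 0.97, 0.51, 0.95 and 1.21 in cord. Nerve stood apart from both and exceeded DRG 5.98-fold (adjusted p = 0.000291) and cord 10.3-fold (adjusted p = 3.68e-05). Abcc9, the sulfonylurea receptor that completes this channel, had the same order, with nerve 7.19-fold over DRG (adjusted p = 0.000314) and 16.5-fold over cord. The 8 pericyte and smooth muscle markers summed to 103 to 116 in nerve, 51.0 to 60.0 in DRG and 17.1 to 22.2 in cord, with Cnn1 detected on no array, and their part in the result was not tested. Kcnj3, a subunit of the G protein-gated channels that mediate opioid and GABA-B inhibition, stood at 6.43, 6.96, 6.70 and 6.96 in cord, 4.21, 4.69, 4.87 and 4.28 in DRG, and 1.58, -0.16, 0.97 and 0.45 in nerve. The tissues did not overlap, and cord exceeded DRG 4.76-fold (adjusted p = 0.000173) and nerve 66.3-fold (adjusted p = 1.33e-05). Kcnj16, a glial and epithelial rectifier, was detected at 2.98, 2.81, 2.73 and 2.87 in cord and on 1 other array, of DRG. With the other DRG arrays dim, the difference of cord over DRG came to 19.2-fold (adjusted p = 0.000154). Its partner Kcnj10, the astrocyte rectifier, was detected on the cord arrays alone, at -0.99, -0.84, -0.82 and -0.75, and missed the call (adjusted p = 0.069 against DRG). Kcnj14 was 10.6-fold higher in cord than DRG. Kcnj13, an epithelial rectifier, was lowest in cord, 3.37-fold under nerve and 2.58-fold under DRG. Kcnj11, the neuronal ATP-sensitive pore, was detected on 1 cord array only.

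Tandem-pore genes were called in both directions, at shares not far from those of all genes. Of 11 tested, 1 was higher in DRG than nerve (9.09%, against 6.83% of all genes) and 2 lower (18.2%, against 10.6%). In cord 2 were higher than in nerve (18.2%, against 16.1%) and 3 lower (27.3%, against 21.4%). Kcnk6 lay at 3.88, 3.67, 4.22 and 3.58 in nerve, 1.98, 1.89, 2.09 and 1.97 in DRG, and -0.01, 0.22, 0.63 and 0.42 in cord. The tissues did not overlap, and nerve exceeded DRG 3.62-fold (adjusted p = 0.000615) and cord 11.5-fold (adjusted p = 2.58e-05). Kcnk5 was 3.15-fold lower in cord than DRG and 3.28-fold lower than in nerve. Kcnk13 was lowest in DRG, 3.12-fold under nerve (adjusted p = 0.000906) and 2.58-fold under cord, and its paralog Kcnk12 lay 4.37-fold higher in DRG and 6.77-fold higher in cord than in nerve. The broadly used leak genes Kcnk1, Kcnk2 and Kcnk3 were detected on all 12 arrays and were called in no contrast. Kcnk10 and Kcnk4, mechanosensitive relatives of Kcnk2, were dim in nerve. Kcnk18, a leak gene of sensory neurons, was detected on 1 DRG array and on no cord array. In nude rats, where it was dim in both tissues, the floors alone gave -1.08 for cord minus DRG. Its call over cord thus rests largely on the floors.

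Among the 7 calcium- and sodium-activated genes, Kcnn4, the intermediate-conductance channel, was detected on all 4 DRG arrays at 0.38, -0.11, 0.13 and 0.03 and on no cord array. It was at least 5.20-fold higher in DRG than cord (adjusted p = 0.000532). Kcnn4 was detected on 1 nerve array, and its call over cord there rests on that array and on the floors. In nude rats, where it was dim in nerve and cord, the floors alone gave -0.685 for cord minus nerve. Kcnt1, a sodium-activated channel that shapes firing after bursts, was at least 4.78-fold higher in cord than nerve (adjusted p = 0.000474). The small-conductance gene Kcnn3 was detected on all arrays without a call, Kcnn2 on cord arrays alone without a call, and Kcnn1 and Kcnt2 were not called.

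**Figure D2:**
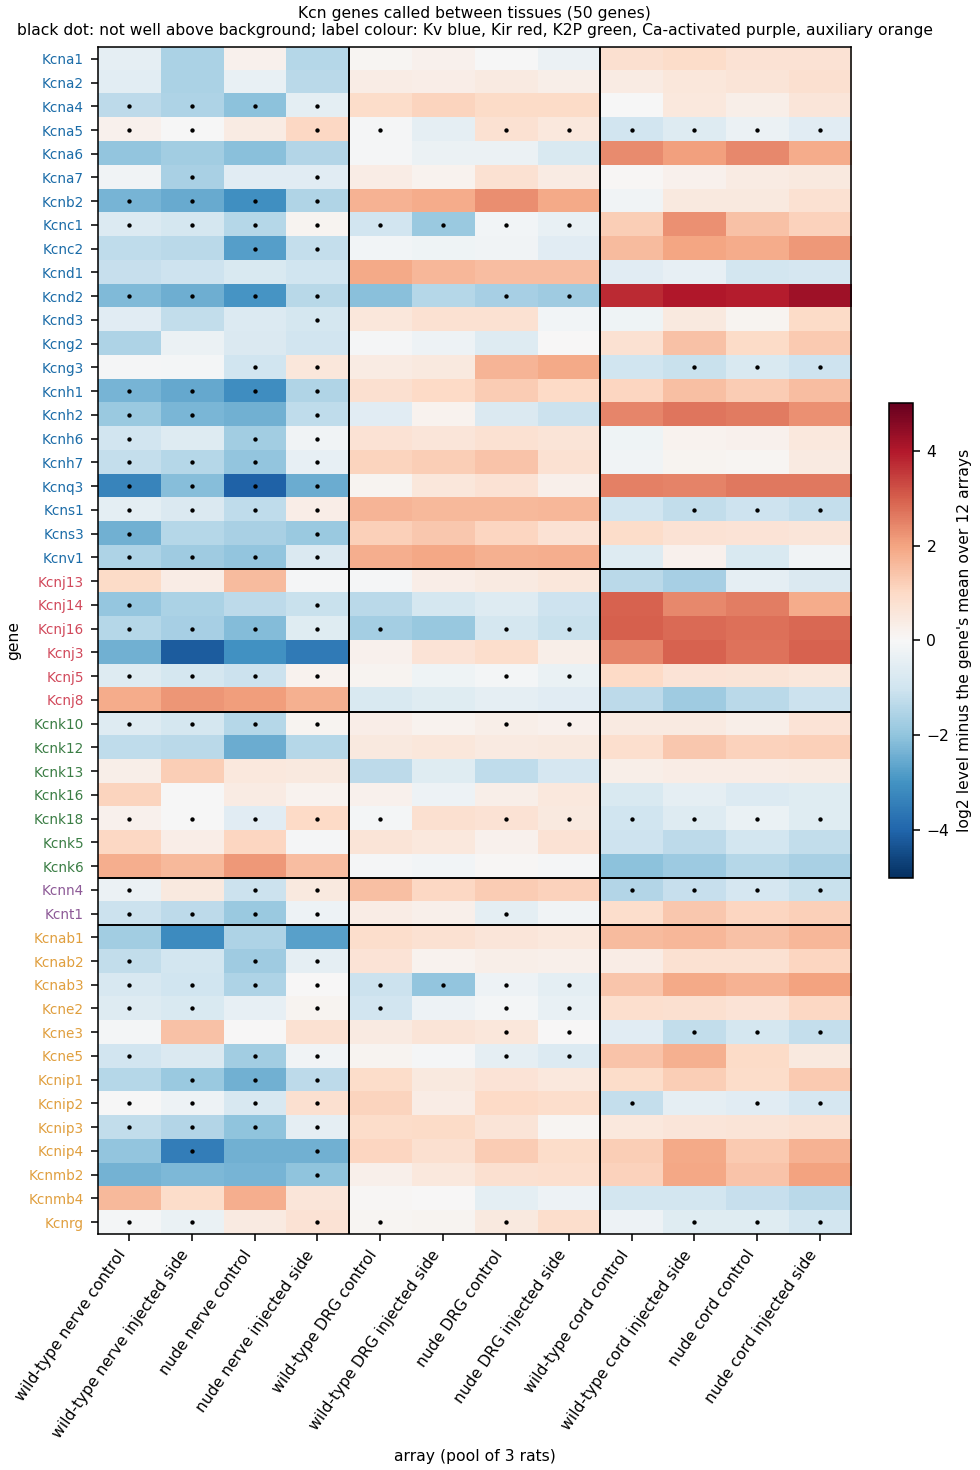
Log2 level relative to the mean of each gene over the 12 arrays (colour) for 50 of the 53 genes called in at least 1 tissue contrast (rows, grouped by class) on each array (columns, grouped by tissue), with black dots for levels not above background. Kcnj8, Kcnk6 and Kcnmb4 are highest on the nerve arrays, Kcns1 and Kcnv1 on the DRG arrays, and Kcnd2, Kcnj16 and Kcnq3 on the cord arrays, in both rat types and on both sides.

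A separate list held partners and scaffolds of these channels. Of 27 listed genes 24 were on the array and 23 tested. In DRG 6 were higher than in nerve (26.1%, against 6.83% of all genes) and 1 lower (4.35%, against 10.6%). In cord 9 were higher than in nerve (39.1%, against 16.1%) and 2 lower (8.7%, against 21.4%). Dpp10 and Dpp6, accessory proteins of Kcnd channels, were dim in nerve and at least 13.3-fold and 3.17-fold higher in DRG. Rest, a repressor of neuronal genes, was 4.31-fold lower in cord than nerve (adjusted p = 0.000471) and 4.71-fold lower than in DRG, with levels of 0.77, 1.42, 0.28 and 1.35 in nerve and -1.21, -1.46, -0.98 and -0.96 in cord.

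The calls were also counted within each rat type. The 2 rat types supply the 2 values per tissue behind every call, so their agreement follows largely from the call and is no separate check. Within wild-type rats 32 of 33 calls between DRG and nerve, 43 of 45 between cord and nerve and 29 of 31 between cord and DRG were at least 2-fold in the same direction. Within nude rats, whose 6 arrays shared 1 slide, these numbers were 31, 41 and 29. The 29 include Kcnk18, which was dim on all DRG and cord arrays of nude rats. The exceptions in nude rats were Kcnh2 and Kcnt1 for DRG and nerve, Kcne2, Kcnk16, Kcnn4 and Kcnv1 for cord and nerve, and, for cord and DRG, Kcnh7 among others. For DRG and cord, each rat type had a slide of its own, so rat type and slide cannot be told apart. The wild-type nerve arrays were on the slide of the nude arrays. Within wild-type rats, differences of DRG or cord from nerve are therefore also differences between slides, and tissue and slide cannot be told apart there. Where normexp replaced the background correction of the scanner software, 14 rather than 29 genes were higher in DRG than nerve, 21 rather than 36 in cord than nerve, and 3 rather than 15 in DRG than cord. Without the control nude nerve array, 16 rather than 9 were higher in nerve than cord.

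Promoter sequences are shown for a gene highest in nerve, one highest in DRG and a pair highest in cord, to place the 3 tissue patterns beside the DNA at their starts. They run from 250 bases before to 50 after the start in RefSeq annotation GRCr8, 5′ to 3′ on the strand of the gene, with every CG in capitals. Of the 90 genes 61 had an entry, with 67 promoters in all.
Kcnmb4 (nerve), chr7:54005052-54005351, minus strand: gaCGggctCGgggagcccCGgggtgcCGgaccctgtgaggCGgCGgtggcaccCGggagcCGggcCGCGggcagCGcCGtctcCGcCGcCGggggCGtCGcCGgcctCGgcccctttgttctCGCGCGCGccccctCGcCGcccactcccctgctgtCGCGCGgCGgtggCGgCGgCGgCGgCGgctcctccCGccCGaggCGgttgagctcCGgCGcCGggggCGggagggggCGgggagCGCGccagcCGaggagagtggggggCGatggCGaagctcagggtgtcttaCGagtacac
Kcns1 (DRG), chr3:173262297-173262596, minus strand: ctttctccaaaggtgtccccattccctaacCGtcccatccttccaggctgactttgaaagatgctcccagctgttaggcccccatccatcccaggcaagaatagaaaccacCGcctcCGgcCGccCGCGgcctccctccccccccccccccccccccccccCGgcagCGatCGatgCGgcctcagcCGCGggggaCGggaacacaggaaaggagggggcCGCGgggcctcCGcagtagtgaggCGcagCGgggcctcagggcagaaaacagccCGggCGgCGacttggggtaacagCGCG
Kcnd2 (cord), chr4:50742235-50742534, plus strand: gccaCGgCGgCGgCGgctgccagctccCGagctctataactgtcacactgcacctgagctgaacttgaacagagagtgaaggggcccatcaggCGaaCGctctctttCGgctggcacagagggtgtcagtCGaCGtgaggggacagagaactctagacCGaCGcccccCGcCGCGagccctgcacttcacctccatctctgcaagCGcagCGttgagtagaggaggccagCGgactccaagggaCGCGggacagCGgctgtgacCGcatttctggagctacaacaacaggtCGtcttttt
Kcnj16 (cord), chr10:96517074-96517373, plus strand: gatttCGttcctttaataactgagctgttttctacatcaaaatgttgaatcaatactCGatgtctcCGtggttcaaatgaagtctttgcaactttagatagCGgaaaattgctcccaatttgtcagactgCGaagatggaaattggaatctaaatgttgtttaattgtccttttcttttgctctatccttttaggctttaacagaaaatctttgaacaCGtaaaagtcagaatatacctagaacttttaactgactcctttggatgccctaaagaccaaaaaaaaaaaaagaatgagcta

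These promoters hold 48, 23, 23 and 6 CG, in the order shown. Over the 33469 promoters of all genes 1.04% hold at least 48, 19.5% at least 23 and 56.3% at least 6, and the median is 7. The cord genes Kcnd2 and Kcnj16 thus differ widely in CG while sharing their tissue order. The median over the 67 promoters of potassium channel genes was 13. The letters TATAAA, on either strand, were found in 2 of them (of Kcnj1 and Kcnj13) and in 14.2% of all promoters.

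The next comparisons ask what the injected side held against its control. Each sets 1 array against 1, so the differences have no replicate check and no test, and a gene is counted where the levels stand at least 2-fold apart. In the wild-type nerve 46 potassium channel genes were measurable, of which 4 were higher on the injected side (8.70%, against 4.68% of all genes) and 7 lower (15.2%, against 4.08%). In the nude nerve 8 of 33 were higher (24.2%, against 7.52% of all genes) and 8 lower (24.2%, against 13.5%). In the wild-type DRG 0 of 65 were higher and 1 lower, where 0.489% and 0.517% of all genes were. In the nude DRG it was 0 of 54 in either direction, where 0.682% and 0.388% of all genes were. In the wild-type cord 1 of 75 was higher and 0 lower, against 0.913% and 0.831% of all genes. In the nude cord 1 of 68 was higher and 0 lower, against 0.776% and 0.589%.

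In the nude nerve the median of all genes itself lay at -0.38, against -0.05 in the wild-type nerve, so ratios of the main genes there are also given relative to it. The split of the counts moved with the scaling. With arrays centred on the median 711 genes of the whole array were higher and 1280 lower in the injected nude nerve, and with the 75th percentile 1128 and 530. For the potassium channel genes 8 and 8 became 11 and 4. With normexp the whole array gave 27 and 4079, and the potassium channel genes 1 and 9.

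**Figure D3:**
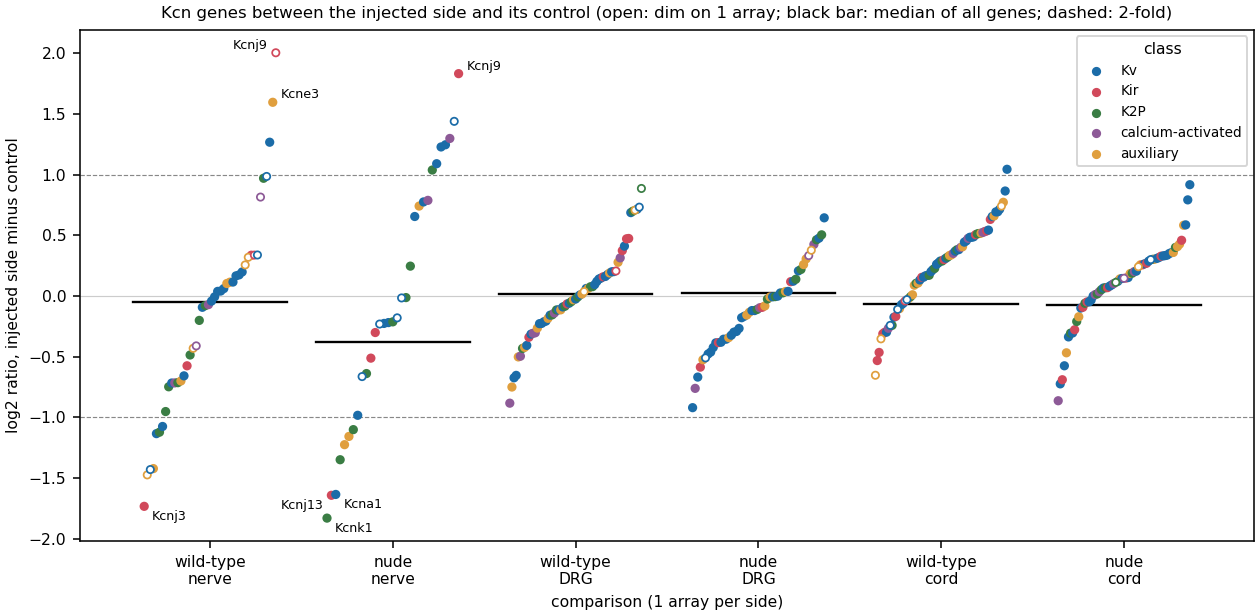
Log2 ratio of the injected side over its control (vertical axis) for the potassium channel genes measurable in the 6 comparisons, without those not reported by name, coloured by class, each from 1 array per side. Open circles mark genes dim on 1 of the arrays, dashed lines 2-fold and black bars the median of all genes. Ratios spread widely in nerve, and in cord most genes lie above the bar of all genes.

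The Shaker genes Kcna1 and Kcna2 and the beta subunit gene Kcnab1 stood lower in the injected nerve of both rat types. The probe used for Kcna6, another Shaker gene, stood higher. Kcnab2, another beta subunit gene, was at -1.11 in the injected wild-type nerve against a dim control (at least 1.25-fold higher). In both nude nerves Kcnab2 was dim and gave no ratio. Kcna1 had a level of 3.41 in the injected and 4.54 in the control nerve of wild-type rats, and of 3.56 and 5.20 in nude rats. Both injected nerves lay under both controls, with differences of 2.20-fold and 3.11-fold (log2 ratios -1.14 and -1.64, or -1.08 and -1.25 relative to all genes). Kcnab1 was at -0.47 against 0.95 in wild-type and -0.01 against 1.15 in nude nerves, 2.68-fold and 2.23-fold lower. Relative to all genes its nude ratio came to -0.78, short of 2-fold. The dimmer Kcnab1 probe was above background in neither injected nerve and gave no ratio. Kcna2 was 2.11-fold lower in the wild-type nerve, at 2.48 against 3.55, and lay at 2.72 against 3.71 in the nude nerve (-0.60 relative to all genes). Kcna6 was at -0.27 against -0.47 in wild-type and 0.03 against -0.62 in nude nerves, and its other probe had ratios of -0.21 and 0.90.

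Of 32 genes measured in both nerves, Kcna1 and Kcnab1 were at least 2-fold lower in both, as were 269 of 9399 genes of the whole array. Relative to the median of all genes this held for Kcna1 alone. At 1.5-fold the genes lower in both were Kcna1, Kcna2, Kcnab1, Kcnk1, Kcnk2, Kcnk5 and Kcnmb4, which is 7 of 32, where 10.3% of all genes were. The Schwann cell markers moved in the same direction. Their summed level was 2087 in the injected and 3546 in the control wild-type nerve, and 1907 and 3776 in the nude nerve. In each, 9 of 10 lay below 0, as did 5646 of 10213 genes in the wild-type and 6800 of 9456 in the nude nerve. The median ratio of these markers was -0.67 and -1.03, against -0.05 and -0.38 for all genes. All 8 macrophage markers were detected in every nerve, and their sum was 2634 against 1242 in wild-type and 1877 against 1564 in nude nerves. The adipocyte sum was 440 against 897 and 354 against 755, with Lep detected in no nerve. The part of these markers in the channel ratios was not tested.

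Several leak genes of the K2P class had ratios below 0 in both rat types. Kcnk1 lay at 4.62 against 5.58 in the wild-type nerve and at 4.39 against 6.22 in the nude nerve, ratios of -0.95 and -1.83 (-1.45 relative to all genes in nude rats). Kcnk2, the thermo- and mechanosensitive leak channel, was at 3.24 against 3.99 and 2.93 against 4.28. Its nude ratio of -1.35 (-0.97 relative to all genes) came to -0.19 as the mean over its 3 probes, and the other probe detected in every nerve gave 0.08. Kcnk5 was at 2.88 against 3.59 and at 2.52 against 3.62 (-0.72 relative to all genes in nude rats). In the wild-type nerve 1 of 8 measurable K2P genes had a ratio above 0 (12.5%, against 44.7% of all genes), with a median of -0.60. In the nude nerve 2 of 8 did (25.0%, against 28.1% of all genes), a share near that of the whole array, with a median of -0.43 against -0.38. Those above 0 were Kcnk13 in wild-type rats, at 2.65 against 1.69, and Kcnk3 and Kcnk12 in nude rats, Kcnk3 at 1.55 against 1.31.

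Other genes were lower by 2-fold in a single rat type. Kcnj3 was 3.33-fold lower in the wild-type nerve, at -0.16 against 1.58, and lay at 0.45 against 0.97 in the nude nerve. Kcnk16 was 2.18-fold lower in the wild-type nerve, and Kcnip4, dim in the injected nerve, at least 2.78-fold lower. The Kcna7 probe used here, dim in the injected wild-type nerve, was at least 2.70-fold lower there. The other Kcna7 probe, brighter in nerve, was detected on all 4 nerve arrays and lay at -0.43 against -0.27. In the nude nerve Kcnj13 was 3.12-fold lower, at 1.85 against 3.50 (-1.26 relative to all genes), and Kcnmb4 2.34-fold, at 4.35 against 5.57. Relative to all genes the nude ratio of Kcnmb4 came to -0.84, and with the 75th percentile it was -0.93, short of 2-fold. Whether the rat types differ in these genes was not tested.

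Among the genes higher in both injected nerves was Kcnj9. Of all 9399 genes 189 were at least 2-fold higher in both. Kcnj9, a G protein-gated rectifier, was at 0.57 against a dim control in wild-type rats (at least 4.01-fold) and at 0.32 against -1.51 in nude rats (3.56-fold). The second Kcnj9 probe was detected on 1 nerve array and gave 0.39 in the wild-type nerve.

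Kcne3 was 3.02-fold higher in the injected wild-type nerve, at 0.42 against -1.17, and lay at -0.30 against -1.04 in the nude nerve. Kcng2 was 2.41-fold higher in the wild-type nerve alone, at 0.52 against -0.74, and -0.16 against 0.06 in nude rats. In the nude nerve Kcnma1 was 2.46-fold higher, at 3.51 against 2.21, whereas in the wild-type nerve it lay at 3.36 against 4.07. Kcnh3, Kcnk12, Kcnq1 and Kcnv2 were between 2.05-fold and 2.37-fold higher in the nude nerve and within 0.1 log2 units in the wild-type nerve. The other Kcnq1 probe, detected on all 4 nerve arrays, gave 0.27 in the nude nerve. Relative to all genes Kcne3 (1.12), Kcng1 (1.16), Kcnn3 (1.17) and Kcna6 (1.04) also passed 2-fold in the nude nerve. This centring raises every ratio there alike, and the share of all genes that then pass is not given here. Kcnh4 was dim in the control nude nerve, at least 2.71-fold. With normexp none of these named genes was still 2-fold higher.

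**Figure D4:**
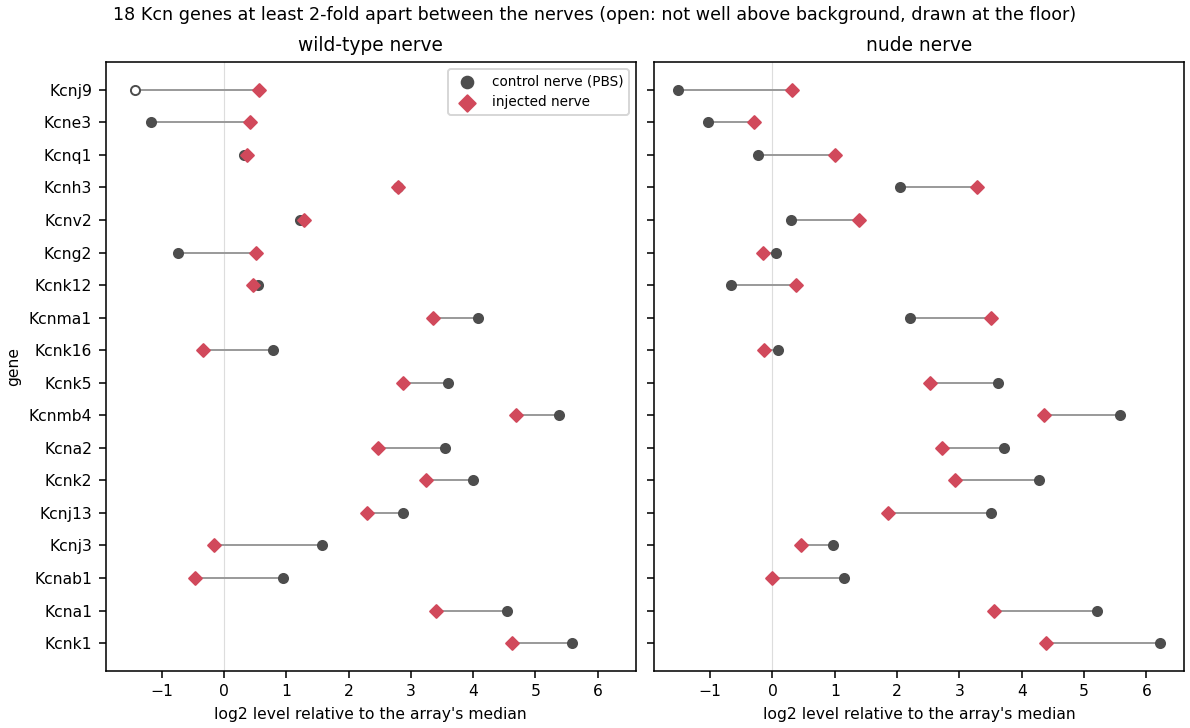
Log2 level relative to the array median (horizontal axis) of 18 genes at least 2-fold apart and detected in both nerves of that rat type, in the control nerve (grey circles) and the injected nerve (red diamonds), 1 array each, for wild-type (left) and nude rats (right). Kcna1, Kcna2, Kcnab1, Kcnk1, Kcnk2 and Kcnk5 lie lower and Kcnj9 and Kcne3 higher in the injected nerve of both.

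In the DRG the potassium channel genes showed little difference between sides. The 65 genes of the wild-type DRG had a median ratio of -0.03 (all genes 0.01), with 34 below 0, and the 54 of the nude DRG -0.10 (all genes 0.02), again with 34 below 0. In both rat types 20 of 54 genes (37.0%) lay below 0, against 20.4% of all genes. Kcns1, Kcnb2, Kcna4 and Kcnd1, which are among the 29 genes called higher in DRG than nerve, differed by at most 0.43 log2 units between the sides of each rat type. Others of the 29 differed more in 1 rat type, such as Kcnd3 (-0.92 in nude rats) and Kcnh2 (0.71 in wild-type rats). Among markers of axon injury, Vip (3.00 and 3.39) and Gal (1.79 and 1.64) were higher on the injected side of wild-type and nude rats. Of 8 and 7 such markers measured, 2 were at least 2-fold higher in each rat type and none 2-fold lower, with 1 and 3 below 0. Their part in the channel ratios was not tested.

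In the cord, potassium channel genes leaned to higher levels in the lumbar enlargement than above it, by small amounts. In wild-type rats 54 of 75 genes had a ratio above 0 (72.0%, against 40.3% of all genes) and the median was 0.29 against -0.07. In nude rats 49 of 68 did (72.1%, against 37.7%) and the median was 0.15 against -0.07. These are separate pools of rats. Both ratios were above 0 for 42 of 68 genes (61.8%), where 24.0% of all genes had both above 0. Kv genes had medians of 0.30 and 0.20, and auxiliary genes 0.22 and 0.26.

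Few of these reached 2-fold. Kcnc1 was 2.06-fold higher in the wild-type lumbar cord, at 1.52 against 0.48, and lay at 0.38 against 0.72 in nude rats. At 1.5-fold in both rat types stood Kcnd3 (0.75 against 0.04 and 1.18 against 0.39), Kcnh8 (-0.64 against -1.34 and -0.35 against -1.26) and Kcnv1 (0.33 against -0.54 and -0.08 against -0.67). That is 3 of 68 genes, where 1.07% of all genes were. Kcnmb2 lay at 3.36 against 2.58 and at 3.44 against 2.86. Kcnj14 ran the other way in both, at 2.91 against 3.45 and 2.35 against 3.04.

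Markers of cord cells differed between the cord arrays too. The 10 spinal cord neuron markers had ratios above 0 in both rat types, without exception, and summed to 424 in the lumbar cord against 309 above it in wild-type rats and to 383 against 354 in nude rats. The oligodendrocyte sum was 1511 against 2323 and 1482 against 2376, with 7 and 8 of 8 markers below 0. Of all genes 6605 of 11065 and 6654 of 10689 lay below 0. The control is another level of the cord as well as a part remote from the injected nerve, so cord level and injection cannot be told apart. The part of the neuron and oligodendrocyte markers was not tested.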

How the data were processed

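Total RNA was labelled with Cy3 and hybridized to 12 single-colour Agilent rat arrays. The authors extracted signals with Feature Extraction (10.7.3.1 per the file headers, 10.5 per the labels), and the deposited intensity of a spot is background subtracted with no normalization between arrays. The deposited log2 values, normalized by the authors in GeneSpring, served as an alternative. The other columns used are flags the authors' software set per spot.

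Outlier spots were left out, the log2 signals of a probe averaged and the median of each array subtracted. Probes were named through RefSeq accessions (18006 of 30367 probes). A gene took its brightest probe, and 24 of the 90 genes had several. Near-identical probes were not searched.

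Tissues were fitted with limma 3.58.1 (R 4.3.3) with a term for rat type, on 6 values (residual df 2, prior df 3.42) and 12071 genes, with Benjamini-Hochberg adjustment. Nothing says that pools are separate draws of rats. The p-values rest on how far the tissue differences varied between the 2 rat types, moderated over all genes. The rat types differ also in strain, labelled day and, for DRG and cord, slide. The spread between the 2 sides was averaged out and is not measured by the p-values. A fold against a tissue dim on 4 arrays is a lower bound where the other tissue was detected on all 4. A few genes enter the fits and counts but are not reported here by name or drawn. The code was tested on simulated data. Genes were named for the largest folds per class, for 2-fold side differences and for known roles. The genes and lists were chosen with earlier results of these data known. The alternatives were other scalings, normexp on the median spot signal with an offset of 50 (planned on the mean signal, not used here), the authors' values, other filters and thresholds, all probes, other model terms and single arrays left out. Figures used Python 3.11.15 and matplotlib 3.10.9.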

Additional observations from a re-analysis of the deposited data

How the results depend on the processing

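Of 64 tissue differences of named genes, with 1496 values under the alternatives, none changed direction, 67 lost the call and 1429 kept it, and normexp accounted for 26 of those lost. Of 21 side ratios, with 189 values under the alternatives, none changed direction and 33 fell under 2-fold, 15 of them with normexp. With normexp, 14 genes were higher in DRG than nerve, 21 in cord than nerve, 5 in nerve than cord and 3 in DRG than cord. Among genes detected on all 12 arrays, where fewer genes are tested, 8 were higher in DRG than nerve, 8 in cord than nerve, 4 in cord than DRG and 5 in DRG than cord. With the adjusted p alone 16 were higher in nerve than cord, 28 in cord than DRG and 24 in DRG than cord. A rule chosen after seeing the data, that the higher tissue be detected on all 4 arrays, gave 28, 4, 36, 7, 16 and 12 in place of 29, 4, 36, 9, 16 and 15. Leaving out single arrays gave 25 to 32 genes higher in DRG than nerve, 4 to 5 in nerve than DRG, 32 to 39 in cord than nerve, 7 to 16 in nerve than cord, 16 to 17 in cord than DRG and 13 to 16 in DRG than cord. The highest count for nerve over cord came without the control nude nerve array. Among named genes, single arrays ended the cord and nerve calls of Kcna5, Kcnn4 and Kcnk16 (4, 4 and 3 arrays), and of Kcnk10 (0.77 on the log2 scale without the control nude nerve). The same array ended the DRG over nerve calls of Kcnt1 (0.72) and Kcnn4 (0.93). The DRG over cord call of Kcnk18 ended without the injected-side wild-type DRG (-0.91), and that of Kcnrg without any of 4 arrays.

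Between sides, normexp left 1 gene higher and 0 lower in the wild-type nerve, 1 higher in the nude nerve, and 0 higher in the wild-type cord. Over all genes these counts were 201, 107, 27 and 20. Without filter and floor 7 were higher and 11 lower in the wild-type nerve, where 831 and 742 of all 15159 genes were. In the nude nerve 43 were higher, where 4085 of all genes were. The wild-type DRG gave 1 higher and 2 lower (all genes 299 and 304), and the nude DRG 3 lower (all genes 282). The wild-type cord gave 2 higher and 2 lower (all genes 266 and 275), and the nude cord 1 lower (all genes 259). At 1.5-fold 7 were higher and 14 lower in the wild-type nerve, 6 and 5 in the wild-type DRG, and 1 and 4 in the nude DRG. The cord counts at 1.5-fold were 11 and 1 in wild-type and 4 and 3 in nude rats. Shares of all genes at 1.5-fold are not given here for single comparisons, so these counts have no background beside them. The 75th percentile and cyclic loess each gave 4 lower in the nude nerve, where 530 and 883 of all genes were. Cyclic loess also gave 1 higher in the wild-type DRG and 0 higher in the wild-type cord (all genes 70 and 102). Quantile normalization and the authors' values each gave 2 lower in the wild-type DRG (all genes 85 in each). The mean over all probes gave 0 higher in the nude cord (all genes 77). The cause was not tested. No paired analysis was possible because each condition has 1 array and so only 1 replicate number. The rat type term already pairs tissues within a rat type, and a fit that pairs sides across the rat types, with these as replicates, was not run. The number of arrays and the dim injected nude nerve array limit the precision.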
